A study of Rattus norvegicus with 22 samples.

Results

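Descending commissural interneurons (dCINs) were compared with an unselected sample of the ventral horn (MIX) across every probe set of the deposited table, 961 of which have 1 gene symbol. The comparison took the 15 arrays that the sample labels call CIN (7 arrays) or MIX (8 arrays), out of 22 in the series. All samples came from neonatal Wistar rats with no genetic or drug treatment, and each array carried the RNA of 1 animal. The dCINs were neurons of the second lumbar segment filled with a rhodamine dextran tracer that was put on axons cut farther down the opposite side of the cord, so this group holds only cells whose axons crossed the midline and descended to the cut. MIX samples were cells laser microdissected at random from the ventral part of the same segment, and the labels do not say which cell types they held. The paper does not state whether the cords of the MIX samples were also cut and given tracer. The part of such handling in the differences below was not tested. The other 7 arrays held motor neurons (MNs) filled with the same tracer through the ventral roots. Their values are given beside the comparison for some genes and did not enter its test. They entered an alternative fit over all 22 arrays and the choice of the brightest probe set of each gene for the gene lists.

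The ventral horn holds motor neurons, whose axons leave the cord to drive muscle, together with many classes of interneurons and with glia. Motor neurons release acetylcholine, whereas commissural interneurons send their axons across the midline, use glycine, GABA or glutamate, and coordinate the left and right sides during locomotion. An unselected sample of the ventral horn therefore mixes cholinergic, inhibitory and excitatory neurons, and dCINs are a part of what it can hold.

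The numbers of cells differed between the groups. By the labels a dCIN sample held 50 to 100 cells, with a median of 75, and a MIX sample 95 to 187, with a median of 112.5, so the groups overlapped only between 95 and 100 cells. Signals are Li-Wong intensities on a linear scale, and array medians ran from 43.5 to 50.9 in dCINs and from 45.0 to 48.2 in MIX. MIX arrays 5 and 7 stood apart. Their log2 values had median correlations of 0.884 and 0.872 with the other MIX arrays, against 0.942 to 0.958 for the remaining MIX arrays and 0.916 to 0.953 within dCINs. The precision is set by how many arrays there are. Differences below are on the log2 scale, dCIN minus MIX, and a probe set was called where its limma p, adjusted by Benjamini-Hochberg over every probe set, was under 0.1.

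Of all probe sets, 5 were called (0.476%), and all 5 had a lower signal in dCINs. They detect Slc18a3, the vesicular transporter that loads acetylcholine; Sncg, a synuclein of sensory and motor axons; Ngfr, the low-affinity neurotrophin receptor p75; Nrp1, a receptor for class 3 semaphorins and VEGF; and Mt3, a zinc-binding metallothionein of the brain. No probe set was called higher in dCINs by limma (0%). At an unadjusted p under 0.05 there were 77 probe sets (7.33%), of which 40 were higher in dCINs (3.81%) and 37 were higher in MIX arrays (3.52%). Over all probe sets the median difference was 0.02. Cyber-T, run on the same arrays, also called 5 probe sets, 4 lower in dCINs and 1 higher (Hcrtr2).

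**Figure D1:**
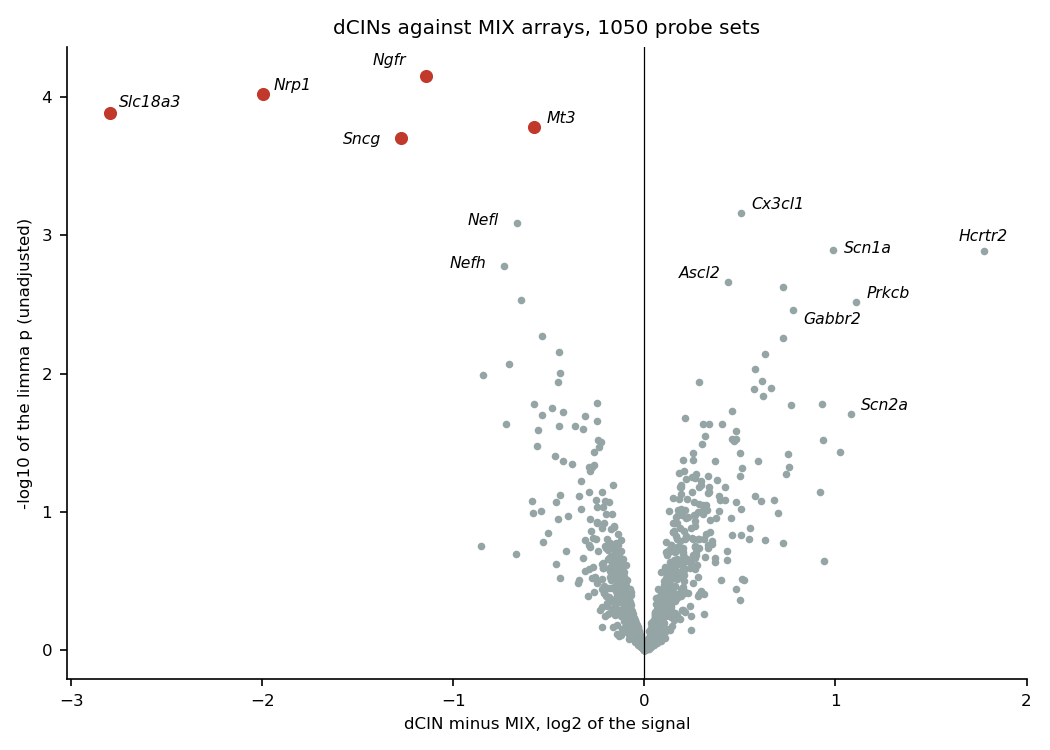
Difference of every probe set between dCINs and MIX arrays (x axis, dCIN minus MIX, log2 of the signal) against the limma p (y axis, -log10, unadjusted). Each point is 1 probe set, and the 5 called ones, in red, all lie to the left, from Mt3 at -0.58 to Slc18a3 at -2.80.

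The largest difference was that of Slc18a3. Its signal ran from 55.8 to 1133 on the dCIN arrays (median 390) and from 1672 to 3801 on the MIX arrays (median 2704). Every dCIN array therefore lay below every MIX array, and only 2 probe sets (0.19% of all) separated the groups in this way. The means were 566 ± 457 (SD, n = 7) in dCINs and 2557 ± 709 (SD, n = 8) in MIX arrays, and MN arrays had 4040 ± 927 (SD, n = 7). The log2 difference was -2.80 (SE 0.56, limma adjusted p = 0.0417; exact permutation p = 0.000155, the smallest that 7 arrays against 8 allow). In samples of many cells such a difference can mean fewer cells of a type or less RNA per cell, and these cannot be told apart here. Among the dCIN arrays themselves Slc18a3 was far from even, with 55.8 on array 3 and 92.1 on array 4 against 1104 and 1133 on arrays 2 and 1. A second probe set for the gene was dim in both groups (39.8 ± 3.18 in dCINs and 40.8 ± 3.90 in MIX arrays), with a difference of -0.03.

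Sncg and Ngfr were also called and stand beside Slc18a3 in the list of genes known in motor neurons. Sncg had signals of 106 to 347 on dCIN arrays (median 201) and of 260 to 705 on MIX arrays (median 496). Only MIX array 3, at 260, lay within the dCIN range. This gave a difference of -1.27 (SE 0.27, limma adjusted p = 0.0417), and the MN mean was 1143. Ngfr had 89.2 to 195 on dCIN arrays (median 135) and 193 to 455 on MIX arrays (median 317). The groups met at a single dCIN array, array 1 at 194.9, which passed the lowest MIX arrays at 193.3 and 193.9. The difference was -1.14 (SE 0.22, limma adjusted p = 0.0417), and the MN mean was 663. A second Ngfr probe set, of a type that can also detect related transcripts, showed no such gap (-0.07, SE 0.14, limma adjusted p = 0.951), so the probe sets of this gene disagree.

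Nrp1 and Mt3 made up the rest of the called probe sets. Nrp1 signals were low in dCINs, from 7.03 to 35.8 (median 22.9), and ran from 24.6 to 189 in MIX arrays (median 82.7). MIX array 3, at 24.6, was again the one that fell inside the dCIN range. The log2 difference was -1.997 (SE 0.39, limma adjusted p = 0.0417), and MN arrays averaged 91.1, although with a wide SD of 66.8. All dCIN signals of Nrp1 lay below the medians of the dCIN arrays. With an offset of 32 added to the signals the Nrp1 difference was -1.09 (SE 0.23, limma adjusted p = 0.0507). Nrp2, the related receptor, differed by 0.12 (SE 0.14, limma adjusted p = 0.913), and of the 3 measured genes of axon guidance Nrp1 was the one called, against 0.476% of all probe sets. Mt3 had 678 to 1213 on dCIN arrays (median 821) and 1098 to 1563 on MIX arrays (median 1271). Its groups overlapped through dCIN array 7 alone, at 1213. The groups differed by -0.58 (SE 0.12, limma adjusted p = 0.0417), the smallest of the 5. The Mt3 call was lost with the spread taken over all 22 arrays (adjusted p = 0.616), by Cyber-T (0.451), under quantile normalization (0.202) and with a trend and robust prior (0.199), at differences of -0.54 to -0.58. The MN mean was 913 ± 468 (SD, n = 7), so for Mt3 the MIX mean was the highest of the 3 groups. Mt1, another metallothionein, differed by 0.19 (SE 0.14, limma adjusted p = 0.836).

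**Figure D2:**
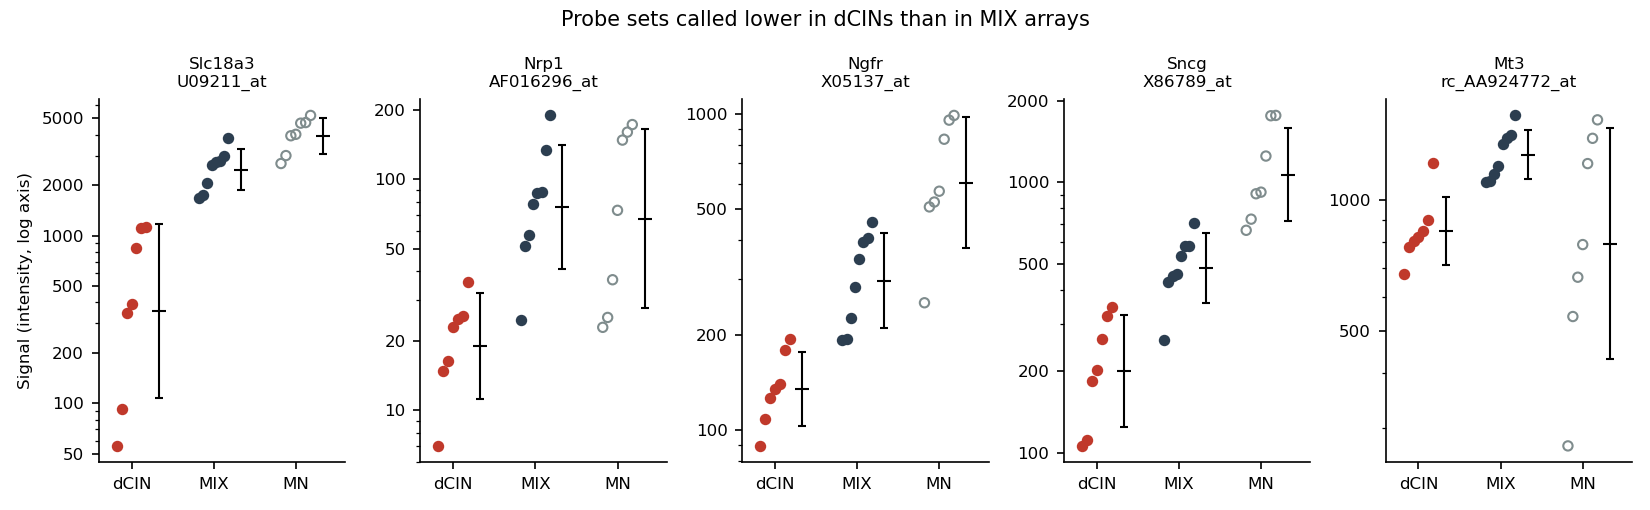
Signal of the 5 called probe sets on each array (intensity, log axis). Points are arrays, filled for dCINs (red) and MIX (dark) and open for MNs, and bars give the mean ± SD of the log2 values. For Slc18a3 no dCIN array (highest 1133) reached the lowest MIX array (1672), and in the other panels the ranges of the groups overlap by a few arrays.

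The start regions of the called genes are shown because these genes were lower together. They are RefSeq windows of 250 bases before to 50 after the annotated start on build GRCr8, which held 4 of the 5 genes. Capitals mark the motifs that were searched on both strands, TGCACNC and TGCGCNC (forms of the metal response element), TATAAA and GGGCGG (the GC box). The windows are Slc18a3 on chr16:7722765-7723064, Sncg on chr16:9711287-9711586 and Mt3 on chr19:10856031-10856330, all on the minus strand, and Nrp1 on chr19:73256307-73256606, on the plus strand.
Slc18a3: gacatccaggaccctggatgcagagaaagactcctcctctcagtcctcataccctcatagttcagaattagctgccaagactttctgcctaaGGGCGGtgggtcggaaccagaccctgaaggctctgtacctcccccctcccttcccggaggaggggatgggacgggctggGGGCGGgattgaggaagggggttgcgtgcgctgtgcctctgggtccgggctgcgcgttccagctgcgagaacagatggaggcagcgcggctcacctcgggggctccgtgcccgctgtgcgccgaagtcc
Sncg: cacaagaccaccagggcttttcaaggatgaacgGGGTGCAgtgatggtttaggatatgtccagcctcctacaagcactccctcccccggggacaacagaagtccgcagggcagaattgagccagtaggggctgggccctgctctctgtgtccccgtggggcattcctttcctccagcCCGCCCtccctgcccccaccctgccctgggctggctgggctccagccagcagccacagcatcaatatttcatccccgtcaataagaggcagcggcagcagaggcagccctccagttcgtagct
Nrp1: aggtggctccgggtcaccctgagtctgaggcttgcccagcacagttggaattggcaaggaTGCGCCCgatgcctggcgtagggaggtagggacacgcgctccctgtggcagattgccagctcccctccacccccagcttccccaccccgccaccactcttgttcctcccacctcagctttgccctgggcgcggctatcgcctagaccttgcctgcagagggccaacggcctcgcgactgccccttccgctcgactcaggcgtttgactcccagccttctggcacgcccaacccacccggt
Mt3: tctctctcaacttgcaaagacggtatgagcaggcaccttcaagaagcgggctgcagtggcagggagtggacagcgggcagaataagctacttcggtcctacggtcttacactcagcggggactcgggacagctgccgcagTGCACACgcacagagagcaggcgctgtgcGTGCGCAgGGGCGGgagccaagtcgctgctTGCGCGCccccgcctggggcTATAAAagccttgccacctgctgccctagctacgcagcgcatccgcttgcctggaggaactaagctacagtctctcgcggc
No motif was in all 4 windows. Mt3 was the one with all 4 motifs, with TGCACNC once, TGCGCNC at 2 places and TATAAA starting 31 bases before the start. Slc18a3 held GGGCGG at 2 places and none of the others, Sncg held GGGCGG and TGCACNC once each on the opposite strand, and Nrp1 held TGCGCNC once. Of all 33469 windows, 12.2% held TGCACNC, 14.1% TGCGCNC, 14.2% TATAAA and 33.1% GGGCGG. A match is a description of these letters and marks no binding site.

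The calls depended on single arrays. Left out one array at a time, limma called 0 to 9 probe sets. Without dCIN array 4 or without MIX array 4 none was called, the lowest adjusted p of these 5 being 0.105 and 0.101, while 64 and 63 probe sets kept an unadjusted p under 0.05. Without MIX array 5 only Ngfr and Nrp1 were called, and without dCIN arrays 3 or 6 the calls were Ngfr, Nrp1 and Slc18a3. Without dCIN arrays 1 or 7 the counts were 8 and 9. Leaving out both MIX arrays that stood apart, a choice made after seeing the data, gave 0 calls at an adjusted p under 0.1 in limma, with 59 at an unadjusted p under 0.05. The differences themselves then stayed near their values, at -2.73 for Slc18a3, -1.77 for Nrp1, -1.26 for Sncg, -0.96 for Ngfr and -0.53 for Mt3.

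Cell number was bound up with group. With the log2 number of cells as a covariate all 5 calls were lost, and the differences were -1.96 for Slc18a3 (SE 0.86), -1.76 for Nrp1, -1.12 for Sncg, -1.06 for Ngfr and -0.74 for Mt3, with limma adjusted p from 0.329 to 0.474. The 1 probe set called in that fit was Scn1a, higher in dCINs by 1.77 (limma adjusted p = 0.042). The samples of like size can be set side by side. The 4 MIX samples of 95 to 100 cells had Slc18a3 signals of 1746 to 2970, above all 7 dCIN arrays, and the single dCIN sample of 100 cells had 840. For Ngfr the same 4 MIX samples had 193 to 455 and that dCIN sample had 135, and for Sncg they had 260 to 583 against 201. Mt3 separated them too, at 1098 to 1411 against 678, but 678 was the lowest Mt3 value of the 7 dCIN arrays. The highest Mt3 value of the dCIN arrays, 1213 from a smaller sample, lay within the range of these MIX samples. For Nrp1 the samples of like size overlapped, since the dCIN sample at 25.7 lay within the 24.6 to 189 of the MIX samples. The same held for some probe sets with a higher mean in dCINs. Hcrtr2 had 127 against a highest MIX value of 136, the brightest of Prkcb 914 against 927, Gabbr2 333 against 419 and Kcnh6 36.9 against 56.8. Other such probe sets lay above these 4 MIX samples, Cx3cl1 at 2336 against a highest value of 2015, Scn1a at 222 against 113 and Kcnc1 at 309 against 234. So did Scn3a at 155 against 116, Nptx2 (neuronal pentraxin 2) at 300 against 294 and Ascl2 at 67.4 against 64.2. Over all 15 arrays this Nptx2 probe set differed by 0.73 (limma adjusted p = 0.34), or 0.46 without MIX arrays 5 and 7. A brighter Nptx2 probe set differed by only 0.14 (SE 0.24, limma adjusted p = 0.94), so the probe sets of this gene disagree. Whether the larger number of cells had a part in the differences over all 15 arrays was not tested beyond these values.

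**Figure D3:**
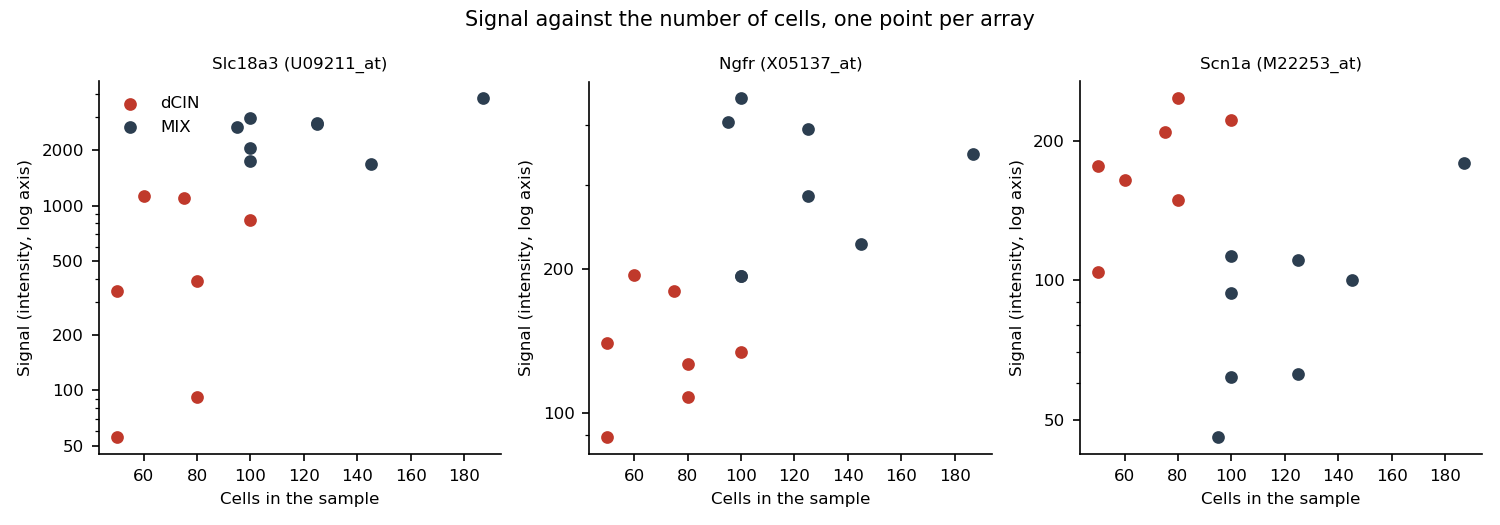
Signal (intensity, log axis) of Slc18a3, Ngfr and Scn1a against the number of cells in the sample (x axis), 1 point per array, dCINs in red and MIX in dark (points of like value overlap). At 95 to 100 cells the MIX points for Slc18a3 (1746 to 2970) lie above the dCIN point (840), and for Scn1a (45.9 to 113) they lie below it (222).

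Among the probe sets with a higher mean in dCINs, none was called, but several separated most arrays. Hcrtr2, the receptor for orexin A and B, had the largest difference. Its signal was 107 to 213 on dCIN arrays (median 134) and 10.3 to 136 on MIX arrays (median 61.2). All dCIN arrays lay above 7 of the 8 MIX arrays, the exception being MIX array 6 at 136. The log2 difference was 1.78 (SE 0.46, limma adjusted p = 0.153; 95% confidence interval 0.80 to 2.75; exact permutation p = 0.00186). MIX arrays 5 and 7 held the lowest values, 10.3 and 12.2, and without both the difference was 1.12 (SE 0.24, limma adjusted p = 0.148). Hcrtr2 passed the threshold in 4 of 16 other settings and in 1 of 15 fits without 1 array. These settings were Cyber-T (adjusted p = 0.00878), and in limma array weights (0.0571), an offset of 32 (0.065) and a mean log2 of at least 6 (0.0753). Hcrtr1, the other orexin receptor, had means of 204 in dCINs and 134 in MIX arrays, with a difference of 0.92 (SE 0.48, limma adjusted p = 0.725).

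Prkcb, a calcium-dependent protein kinase C, was measured by 3 probe sets. The brightest had 740 to 1265 on dCIN arrays (median 914) and 167 to 927 on MIX arrays (median 523). As for Hcrtr2, 7 of the 8 MIX arrays lay below all dCIN arrays, and here MIX array 3 at 927 was the exception. The log2 difference was 1.11 (SE 0.32, limma adjusted p = 0.228; 95% confidence interval 0.43 to 1.78), and 0.73 without MIX arrays 5 and 7. The dimmer probe sets differed by 0.58 (SE 0.21) and 0.26 (SE 0.15) in the same direction. Pcp4, a calmodulin-binding protein in the same list of kinases and calmodulin-related genes, had means of 1303 ± 351 and 822 ± 372 and a difference of 0.77 (SE 0.29, limma adjusted p = 0.538), or 0.42 without MIX arrays 5 and 7.

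Cx3cl1, the neuronal chemokine fractalkine, had the smallest p of the probe sets higher in dCINs. Signals were 2116 to 3300 on dCIN arrays (median 2589) and 1394 to 2177 on MIX arrays (median 1883), and 5 dCIN arrays lay above all MIX arrays. The difference was 0.50 (SE 0.12, limma adjusted p = 0.121). It passed the threshold in 6 of 16 other settings, with a limma adjusted p of 0.04 under array weights and 0.0861 without the MIX samples of over 125 cells. It did not pass by Cyber-T (adjusted p = 0.639) or with cell number as a covariate (limma adjusted p = 0.329), and passed in 3 of 15 fits without 1 array. The other 3 Cx3cl1 probe sets differed by -0.16 to -0.06. Ascl2, a basic helix-loop-helix factor, was the second probe set with no overlap, at 66.9 to 99.0 on dCIN arrays (median 74.8) and 39.6 to 64.2 on MIX arrays (median 61.8). The gap was narrow, from 64.2 to 66.9, at signals not far above the median of an array. The difference of the means was 0.44 on the log2 scale (SE 0.12, limma adjusted p = 0.207). The exact permutation p of 0.000155 only restates the lack of overlap for which this probe set was named.

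**Figure D4:**
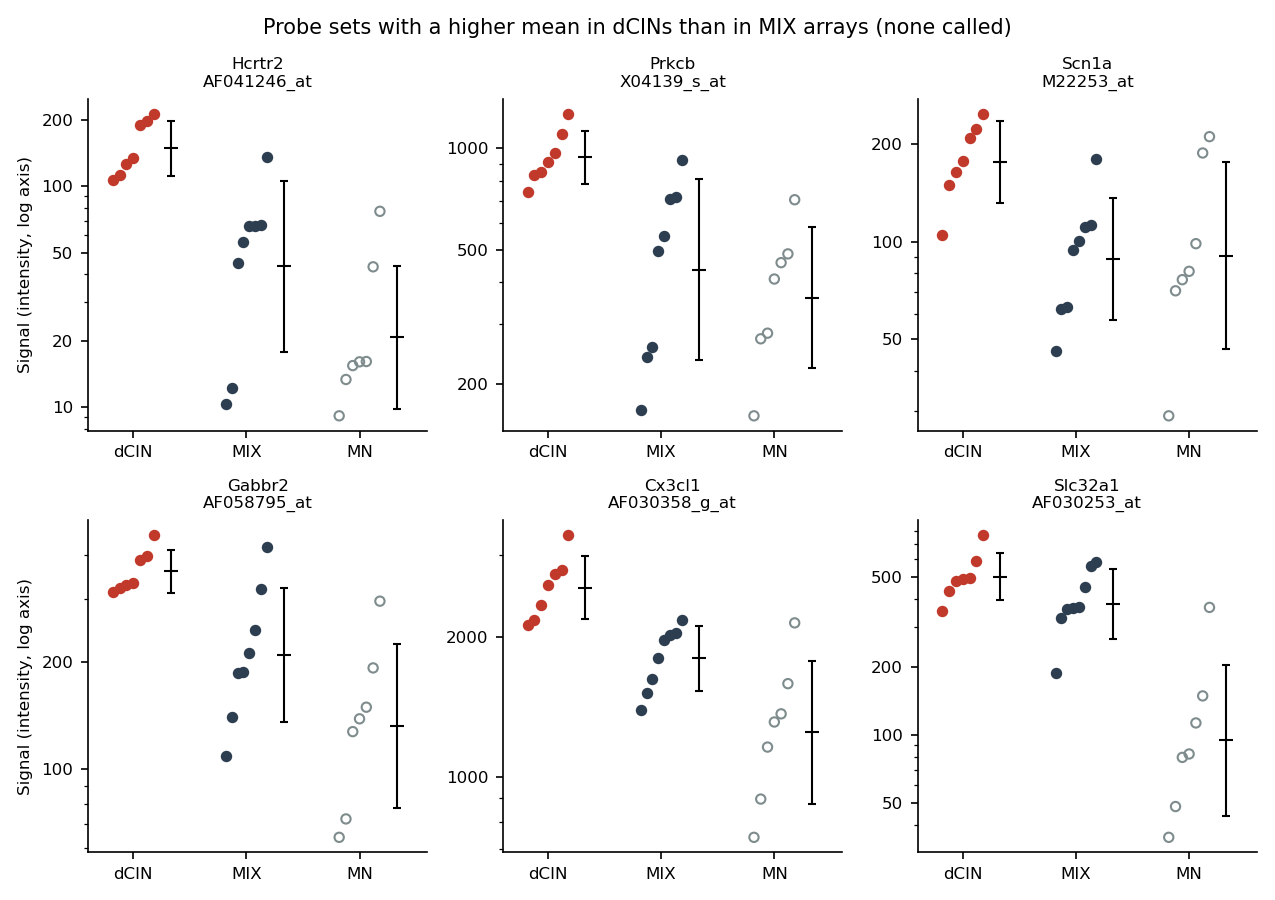
Signal of 6 probe sets with a higher mean in dCINs on each array (intensity, log axis), drawn as for the called probe sets. For Hcrtr2 and for the brightest Prkcb probe set 1 of 8 MIX arrays reaches into the dCIN range, while for Slc32a1 the dCIN and MIX ranges lie over each other. Of the MN arrays, with a Slc32a1 mean of 125, 1 lies inside both ranges at 366.

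The inhibitory marker Slc32a1, the vesicular transporter of GABA and glycine, did not separate dCINs from the unselected ventral horn. Its brighter probe set had 352 to 762 on dCIN arrays (median 489) and 187 to 580 on MIX arrays (median 367). The ranges overlapped over most of their length, with a difference of 0.40 (SE 0.21, limma adjusted p = 0.725; 95% confidence interval -0.06 to 0.85). It was 0.85 (SE 0.31, limma adjusted p = 0.329) with the log2 number of cells as a covariate and 0.19 (SE 0.17) without MIX arrays 5 and 7. The MN mean was 125 ± 113 (SD, n = 7). The dim second probe set differed by -0.19 (SE 0.10). Of the 5 measured genes of GABA and glycine handling none was called (0.476% of all probe sets), and their median difference was 0.14.

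Among the receptors for GABA, Gabbr2 had the smallest p. Gabbr2, a subunit of the metabotropic GABA-B receptor, had 314 to 453 on dCIN arrays (median 333) and 109 to 419 on MIX arrays (median 199). All dCIN arrays lay above 6 of the MIX arrays, and the difference was 0.78 (SE 0.23, limma adjusted p = 0.242). Without MIX arrays 5 and 7, which held the lowest values, it was 0.52 (SE 0.18, limma adjusted p = 0.524). Its partner subunit Gabbr1 differed by -0.40 (SE 0.23, limma adjusted p = 0.745). Of the 16 measured GABA receptor genes none was called (0.476% of all probe sets), 13 had a positive difference, against 54.4% of all probe sets, and the median was 0.08.

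Sodium channels and ion pumps had positive medians without a call. Among 10 sodium channel genes, 4 passed an unadjusted p under 0.05, all higher in dCINs, against 3.81% of all probe sets, and the median difference was 0.20. Scn1a, the channel Nav1.1, had 105 to 247 on dCIN arrays (median 177) and 45.9 to 180 on MIX arrays (median 97.2). All dCIN arrays lay above 5 of the MIX arrays, and MIX array 1, from the sample with the most cells, had the highest MIX value. The difference was 0.99 (SE 0.26, limma adjusted p = 0.153), 0.75 without MIX arrays 5 and 7. Scn2a differed by 1.08 (SE 0.42, limma adjusted p = 0.538) and Scn3a by 0.58 (SE 0.20, limma adjusted p = 0.465). MN means were 108 for Scn1a and 76.5 for Scn2a. For Scn3a the MN mean of 169.6 was close to the 169.8 of dCINs, and the MIX mean of 113 was the lowest. Of the 32 listed potassium channel genes the median difference was 0.03 and 1 passed the unadjusted threshold on the dCIN side, a share no larger than the 3.81% of all probe sets. It was Kcnc1 (Kv3.1, a channel of fast-spiking neurons), at 271 ± 86.9 in dCINs and 160 ± 39.3 in MIX arrays (0.73, SE 0.20, limma adjusted p = 0.208). The list did not hold Kcnh6, another potassium channel, which was higher in dCINs by 0.63 (SE 0.205, limma unadjusted p = 0.00723, adjusted p = 0.399). Among 10 genes of sodium, potassium and calcium pumps 8 had a positive difference, against 54.4% of all probe sets, and the median was 0.29. Atp2a2, the calcium pump of the endoplasmic reticulum, differed by 0.61 (SE 0.22, limma adjusted p = 0.465), with means of 736 ± 126 and 505 ± 175. It was 0.34 without MIX arrays 5 and 7 and 1.10 with cell number as a covariate.

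No glutamate receptor gene was called. Of 9 AMPA, kainate and delta receptor genes none was called (0.476% of all probe sets) and 8 had a positive difference, against 54.4% of all probe sets, with a median of 0.15. Grik1, a kainate receptor subunit, and Gria2, the AMPA subunit that limits calcium entry, differed by 0.93 (SE 0.39, limma adjusted p = 0.573) and 0.75 (SE 0.33, limma adjusted p = 0.614). Without MIX arrays 5 and 7 they were 0.55 and 0.33, and without MIX array 7 alone Gria2 was 0.49. The 7 NMDA receptor genes had a median of 0.04. The 5 metabotropic receptor genes had a median of -0.01, with Grm4, a receptor that couples to inhibitory G proteins, at 0.47 (SE 0.20, limma adjusted p = 0.573).

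Genes known in motor neurons lay mostly on the MIX side. Of 15 listed genes 10 were measured, 2 were called lower in dCINs (Slc18a3 and Sncg, against 0.476% of all probe sets), 8 had a negative difference and 7 passed an unadjusted p under 0.05 in that direction, against 3.52% of all probe sets. The median difference was -0.56. Ngfr entered this count at its second probe set, which was not called. Summed over the 10 genes, the signal was 9570 to 13770 on dCIN arrays and 15190 to 20230 on MIX arrays, so the sums did not overlap. Bright genes weigh most in this sum, and it holds Slc18a3, which separated the groups by itself. The neurofilament genes Nefl and Nefh encode the light and heavy chains of the axonal cytoskeleton. Nefl had 1366 to 1883 on dCIN arrays (median 1761) and 1651 to 4136 on MIX arrays (median 2556), a difference of -0.67 (SE 0.16, limma adjusted p = 0.123), and Nefh differed by -0.74 (SE 0.20, limma adjusted p = 0.175), or -0.35 (limma adjusted p = 0.683) with the log2 number of cells as a covariate. For Nefl 7 MIX arrays lay above all dCIN arrays. The MN means were 3867 for Nefl and 3313 for Nefh. Calcb, a form of the peptide CGRP, had means of 103 ± 39.9 in dCINs, 193 ± 95.4 in MIX arrays and 387 in MNs (-0.85, SE 0.29, limma adjusted p = 0.465). Several of these genes were placed in the list with earlier results of these arrays known. Neither the count nor the sums are therefore independent evidence of their direction.

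Map2k2, a kinase of the ERK pathway, was the next named gene on the MIX side by p after the neurofilaments, and all 3 of its probe sets lay that way, at -0.54, -0.56 and -0.56 (unadjusted p of 0.00536 to 0.0336; lowest limma adjusted p = 0.34). Pdgfa, a growth factor for oligodendrocyte precursors, had means of 893 ± 177 in dCINs and 1212 ± 215 in MIX arrays (-0.45, SE 0.15, limma adjusted p = 0.399). Ncs1, a neuronal calcium sensor, was even on dCIN arrays (19.7 to 27.3) and spread over 22.9 to 74.4 on MIX arrays, with a difference of -0.71 (SE 0.24, limma adjusted p = 0.449).

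Over 26 lists with at least 3 measured genes, medians ran from -0.56 for genes known in motor neurons to 0.29 for pumps, around the 0.02 of all probe sets. The cytoskeleton and axon list, which shares the neurofilaments and Sncg with that of motor neurons, had a median of -0.13. The 21 receptors for neuropeptides and cannabinoids had a median of 0.09 and include, beside Hcrtr2, the cannabinoid receptor Cnr1 at 0.76 (SE 0.35, limma adjusted p = 0.657). The 15 neuropeptide precursors had a median of -0.04, with Penk, the enkephalin precursor, at 0.74 (SE 0.36, limma adjusted p = 0.683) and means of 143 and 90.1, or 0.47 without MIX arrays 5 and 7. Acetylcholine receptors (20 genes, 0.01), serotonin receptors (11 genes, -0.03), adrenergic and dopamine receptors (12 genes, -0.03) and vesicle and release proteins (18 genes, 0.03) had medians close to that of all probe sets.

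**Figure D5:**
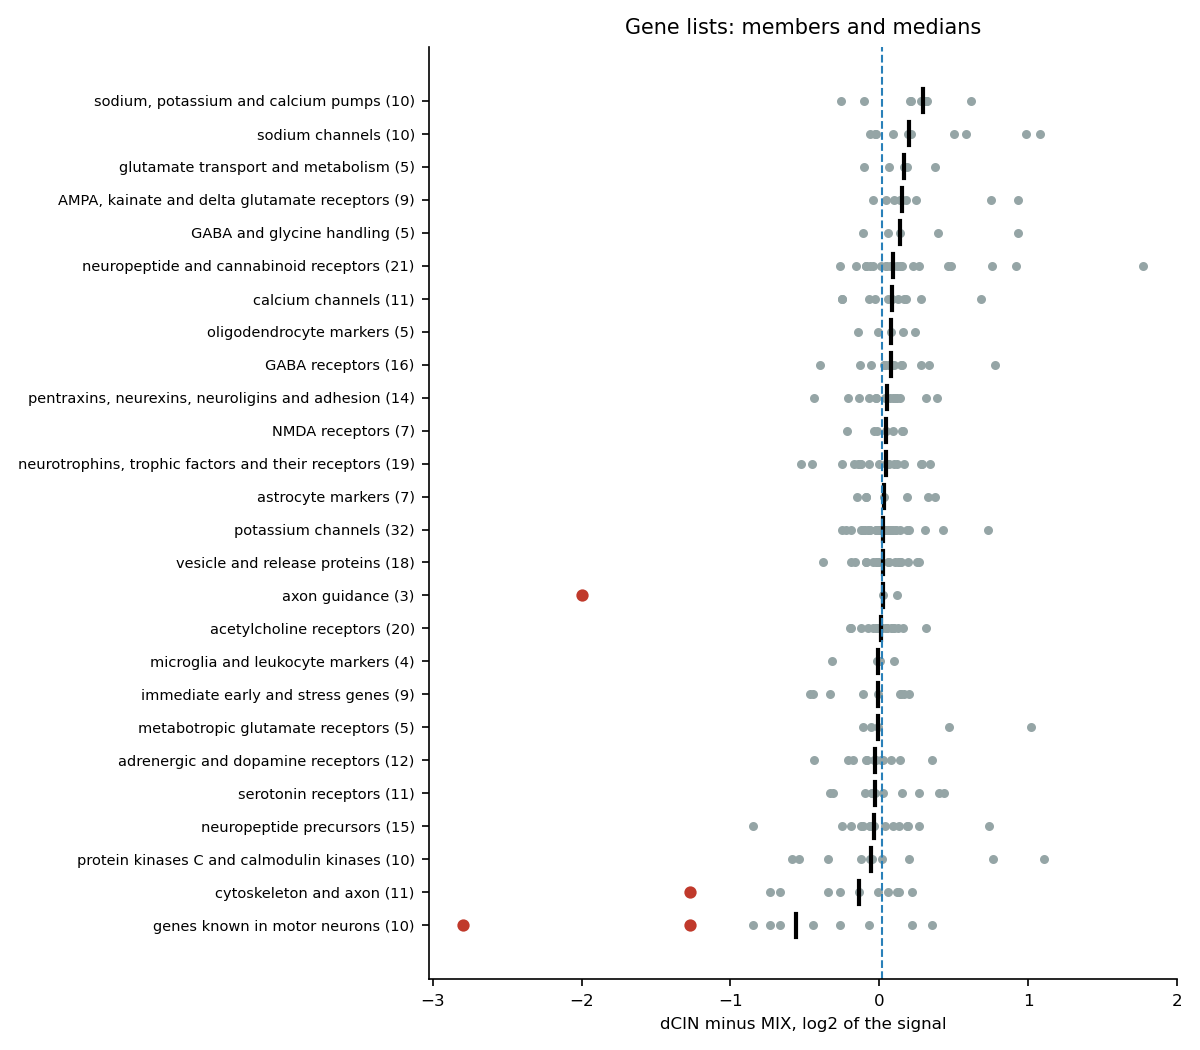
Differences (x axis, dCIN minus MIX, log2 of the signal) of the members of each gene list with at least 3 measured genes, with the number measured in brackets. Points are genes at their brightest probe set, red where called, black bars are list medians and the dashed line is the median of all probe sets (0.02). Genes known in motor neurons have the lowest median (-0.56) and pumps the highest (0.29).

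Markers of glia did not separate the groups. Of 7 astrocyte markers none was called (0.476% of all probe sets) and the median difference was 0.04. Their summed signal was 5511 to 8630 on dCIN arrays and 3501 to 9276 on MIX arrays. Gfap, the defining intermediate filament of astrocytes, stayed near the median of an array at 48.3 ± 11.8 in dCINs and 52.4 ± 5.49 in MIX arrays. Apoe, a lipid carrier, was bright in both, at 6027 ± 869 and 4959 ± 1463 (0.33, SE 0.19, limma adjusted p = 0.743; 0.12 without MIX arrays 5 and 7). The 5 oligodendrocyte markers had a median of 0.08, with summed signals of 477 to 946 and 391 to 1260, and Mbp was dim in both groups (37.1 ± 3.04 and 37.4 ± 4.76). The list for microglia and leukocytes held 4 measured genes, Itgam and the cytokine genes Tnf, Il1b and Ccl2. They summed to 86.5 to 139 on dCIN arrays and 104 to 124 on MIX arrays. Itgam, the surface marker among them, was dim, with means of 16.4 in dCINs and 20.8 in MIX arrays (-0.32, SE 0.13, limma adjusted p = 0.548).

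The 3′ to 5′ balance of a control transcript moved with group. For Gapdh the 3′ probe set exceeded the 5′ probe set by 1.91 ± 0.41 on the log2 scale in dCINs (SD, n = 7) and by 0.82 ± 0.76 in MIX arrays (SD, n = 8; exact permutation p = 0.00528, two-sided). MIX arrays 4, 7 and 8 had the lowest balances, -0.08, -0.15 and 0.20. For Actb the balance was 2.71 ± 0.65 and 3.06 ± 0.84 (exact permutation p = 0.392), without a difference beyond the spread and with the opposite order of means. The part of RNA integrity or amplification in the differences above was not tested.

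Unselected and labelled samples had a like spread over all probe sets. The median SD of log2 values was 0.259 in dCINs, 0.250 in MIX arrays and 0.269 in MNs, and the MIX SD exceeded the dCIN SD for 509 probe sets, close to an even split. Without MIX arrays 5 and 7 the MIX median was 0.196. Single genes could differ from this. The SD of log2 values was larger on dCIN arrays for Slc18a3, and for Hcrtr2 it was larger on MIX arrays, where arrays 5 and 7 lay lowest.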

How the data were processed

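Laser microdissected cells of 22 neonatal rats were profiled on Affymetrix RN_U34 arrays after 2 rounds of RNA amplification. The deposited values are intensity summaries per probe set. The authors subtracted a global background from the PM probes and applied a quantile linear transformation and a quantile projection normalization across the 22 arrays, in part with R scripts of their own, took Li-Wong summaries (linear scale) with the affy package and removed a universal minimum. Out of 1050 probe sets in the table, the platform annotation gives a single gene symbol for 961, and 5 more are named from the paper. The probe-level data and RT-PCR values were not analysed here, and results for some genes are not reported here.

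The values were log2-transformed with no further normalization, and 7 dCIN were compared with 8 MIX arrays by lmFit and eBayes of limma (version 3.58.1, R 4.3.3) with neither trend, robust prior nor covariate. Calls were made under an adjusted p of 0.1 (Benjamini-Hochberg, every probe set). Exact permutation tests, two-sided, ran over all 6435 splits of the 15 arrays. The labels name the arrays biological replicates. Python 3.11.15 with pandas 2.3.3 and matplotlib 3.10.9 drew the figures.

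The members, the 30 lists of genes and the naming rule were chosen with earlier results of these data known. The rule named all probe sets of Slc32a1, Prkcb, Hcrtr2 and Slc18a3, the called ones and those with the smallest p up to 20, those without overlap, the 2 lowest p of each list of at least 3 measured genes, and Gfap, Mbp, Gapdh and Actb, which gave 75 probe sets. Further probe sets of a named gene and the related genes Hcrtr1, Gabbr1, Scn2a, Cnr1 and Mt1 were added after their values were seen. A list took each gene at its brightest probe set over the 22 arrays. On simulated data limma recovered 67.2% of log2 differences of 0.5, 94% of 1 and 100% of 2 (67, 67 and 66 of 1050 probe sets changed), with 7.45% of its calls false. Whether these rates carry over to the real arrays was not tested. The simulation drew independent noise and changed many more probe sets than limma called on the real arrays. Its rates are therefore no measure of power there, where Hcrtr2 at 1.78 and the brightest Prkcb probe set at 1.11 were not called. Alternatives were another set of arrays, filters on low signals, an offset of 32, normalizations, array weights, other priors, Cyber-T (window 101, prior weight 10), a block for array number, a covariate for cell number, and leaving out each array.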

Additional observations from a re-analysis of the deposited data

Results flagged for a closer look

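Among 146 groups of arrays (73 probe sets in dCINs and in MIX), 9 held an array far from the others by Dixon's rule, which chance alone does for about 1 in 20 groups. In dCINs, Map2k2 was 926 on array 7, above 425 to 538 on the others, and Nrxn3 was 166 on array 1, below 327 to 538. Grm4 was 290 on dCIN array 1, below 487 to 654. Apoe was 4235 on dCIN array 3, below 5629 to 6804, and Adrb1 was 26.1 on dCIN array 7, below 35.01 to 40.97. In MIX arrays, Scn3a was 196 on array 2, above 78.4 to 116, and Sstr2 was 91.0 on array 8, above 45.7 to 61.2. The middle Gapdh probe set was 318 on MIX array 7, above 112 to 170. Pdgfra, a receptor of oligodendrocyte precursors, was 688 on MIX array 6, above 133 to 188, the widest gap of the 9. Without dCIN array 7 Map2k2 passed the threshold (limma adjusted p = 0.0407).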

How the results depend on the processing

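The count of 5 called probe sets was 9 with only probe sets of a mean log2 of at least 6 (357 tested, 3 higher in dCINs), 8 with array weights, 1 with cell number as a covariate and 0 without MIX arrays 5 and 7 (limma, 59 at an unadjusted p under 0.05). Leaving out 1 array gave 0 to 9. It was 4 to 7 in the other settings and 5 at an adjusted p under 0.05. With the array number as a replicate block (MIX array 8 left out for want of a partner) 7 were called, all 5 plus Nefl and Nefh. The numbers share no origin in the labels, same-number correlations of -0.226 to 0.306 did not show pairing, and 2 of 7 arrays correlated best with their own number. Arrays numbered 1 and 2 had the lowest Actb 3′ to 5′ balances, from 1.60 to 2.32 and below those of all other arrays, and with them as a covariate, chosen after seeing the data, 5 were called. Mt3 stayed called in 9 and Sncg in 8 of the 15 fits without 1 array. The 2 probe sets without overlap were 1 under quantile normalization and 2 to 6 with 1 array left out. The cause of these changes was not tested. At a mean log2 of at least 6 the list median of sodium channels was 0.58 and that of GABA and glycine handling 0.40. This filter left out the dimmer members of both lists, so these medians cover fewer genes than those of the main fit. The median of the cytoskeleton and axon list was -0.30 with array weights. An offset of 32 gave -1.09 for Nrp1, 1.15 for Hcrtr2, -0.37 for Ncs1, 0.48 for Grik1 and 0.44 for Gria2, array weights 0.40 for Pcp4 and 0.46 for Gria2, and cells as a covariate 0.73 for Apoe. No called probe set changed direction in any setting. Some other named differences did. With cells as a covariate Adra1b was 0.012 (main fit -0.44, SE 0.23, limma adjusted p = 0.725), Nrp2 -0.087 (main fit 0.12) and Pdgfra -0.10 (main fit 0.24). Without MIX arrays 5 and 7 Grin1 was 0.02 (main fit -0.22) and the dimmer Gfap probe set 0.049 (main fit -0.12). The antisense 3′ Gapdh probe set was -0.017 under quantile normalization and -0.024 to 0.179 with 1 array left out. Mbp was 0.007 under array weights, 0.017 without MIX arrays 5 and 7, and -0.047 to 0.034 with 1 array left out. The middle Actb probe set was -0.033 under array weights. The 5′ Actb probe set was -0.041 under quantile normalization, -0.014 with array medians subtracted, -0.086 with array weights, -0.081 with the cell covariate, -0.01 without the larger MIX samples, -0.049 without MIX arrays 5 and 7, -0.003 with arrays 1 and 2 as a covariate and -0.067 to 0.067 with 1 array left out.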
